A study of Petromyzon marinus with 6 samples.

Results

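In the trunk of the larval sea lamprey, 180 transcript models were abundant in TH+ cells and far scarcer in TH- cells. They were chosen from the 19781 models of the deposited tables by their level in CPM, the counts of a model per 1000000 counts of the library. Each member had a mean of at least 100 CPM over the TH+ libraries and a mean above 0 in the TH- libraries. Its TH- mean was below 0.05 of its TH+ mean, and it was shorter than 10000 bases. These values chose the members, so their difference between the groups is described below and is not tested. Among the 1757 models under 10000 bases that reached 100 CPM in TH+, 10.2% passed the ratio, and the 1577 others serve as a comparison set.

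The study took cells from strips on both sides of the trunk of Petromyzon marinus ammocetes, the larval stage of a jawless vertebrate, the presumed site of the sympathetic chains. The first group was TH+ cells, which the labels call sympathetic, with 3 libraries, and the other was TH- cells, labelled as control, with 3 libraries. Both groups were dissociated, fixed in paraformaldehyde and selected with an antibody as populations, and the labels give neither the animals' age nor whether libraries came from separate animals or sorts. The spread between libraries may therefore be technical.

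TH stands for tyrosine hydroxylase, which carries out the rate-limiting step in making catecholamines. In vertebrate sympathetic neurons it makes the precursor of dopamine, which dopamine beta-hydroxylase then turns into noradrenaline, the transmitter that these neurons release onto vessels and organs. TH marks such neurons, but other catecholamine-producing cells contain it too.

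The identity of the members is limited to an identifier and a length. The files list each model under a PMZ identifier and do not pair identifiers with gene names. None of the identifiers was found among the 45433 genes of the lamprey reference table used here. The TH transcript, the markers of neurons and of other trunk cells, and the members' sequences were therefore not analysed here, and the labelled cell types could not be set against their defining markers. For the same reason 2 members are given by identifier and others by length. The libraries held 6573171 to 7525119 estimated counts in TH+ and 7127490 to 9221265 in TH-, so depth overlapped between the groups.

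The members took a steady share of TH+ counts. They held 8.38%, 8.53% and 8.29% of the counts in TH+ libraries 1, 2 and 3, against 0.145%, 0.266% and 0.198% in TH- libraries 1, 2 and 3. The share averaged 8.40% ± 0.120 in TH+ libraries and 0.203% ± 0.0607 in TH- libraries (SD, n = 3 each). The TH+ shares lay close together, whereas TH- library 2 held the highest and TH- library 1 the lowest of the TH- shares. Summed over members, the TH- level was 0.0241 of the TH+ level. In sorted populations, fewer cells that contain a transcript and less of it per cell cannot be told apart. A share of counts also depends on all other models in the library. Scaled by totals, tested models as a whole ran higher in TH+, by a median log2 fold of 2.14, against 5.07 for members. With TMM, explained below, these medians were 0.38 and 3.30. Part of the difference on totals was thus not particular to the members.

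**Figure D1:**
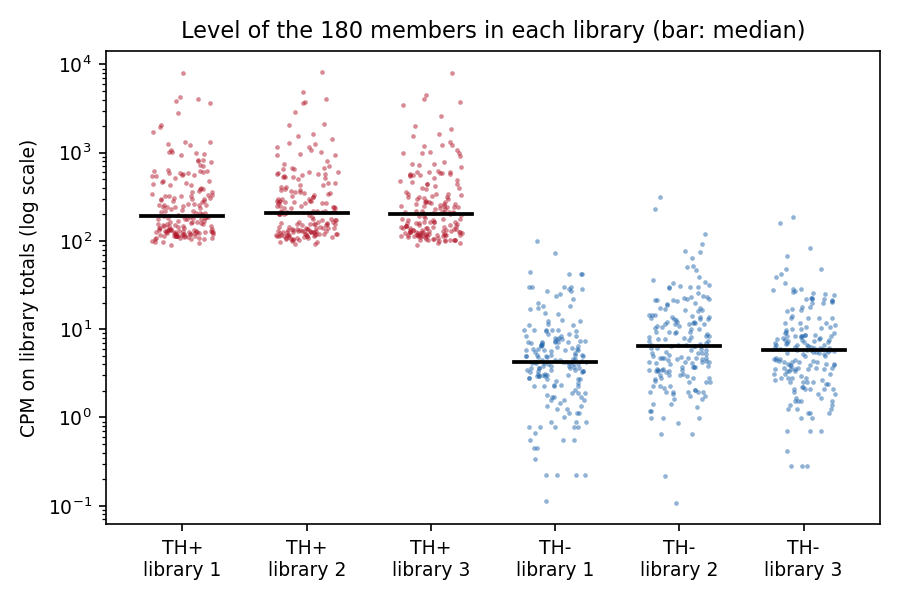
Level of the 180 members in each library, in CPM on a log axis, with TH+ libraries on the left, TH- libraries on the right, 1 point for each member and a bar at the median. The medians were 190.7, 207 and 200.2 CPM in the TH+ libraries and 4.27, 6.51 and 5.75 CPM in the TH- libraries.

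Single members spanned a wide range. The mean level was 100.8 to 8013 CPM in TH+ (median 202 CPM) and 0.167 to 172 CPM in TH- (median 5.44 CPM). The ratio of TH- to TH+ means ran between 0.00108 and 0.0491, with a median of 0.0296. It was below 0.02 for 61 members and below 0.01 for 26. Every member had counts in every library, but TH- counts were often small. Fewer than 10 counts were found for 21, 8 and 15 members in TH- libraries 1, 2 and 3, and for 0 members in each TH+ library.

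**Figure D2:**
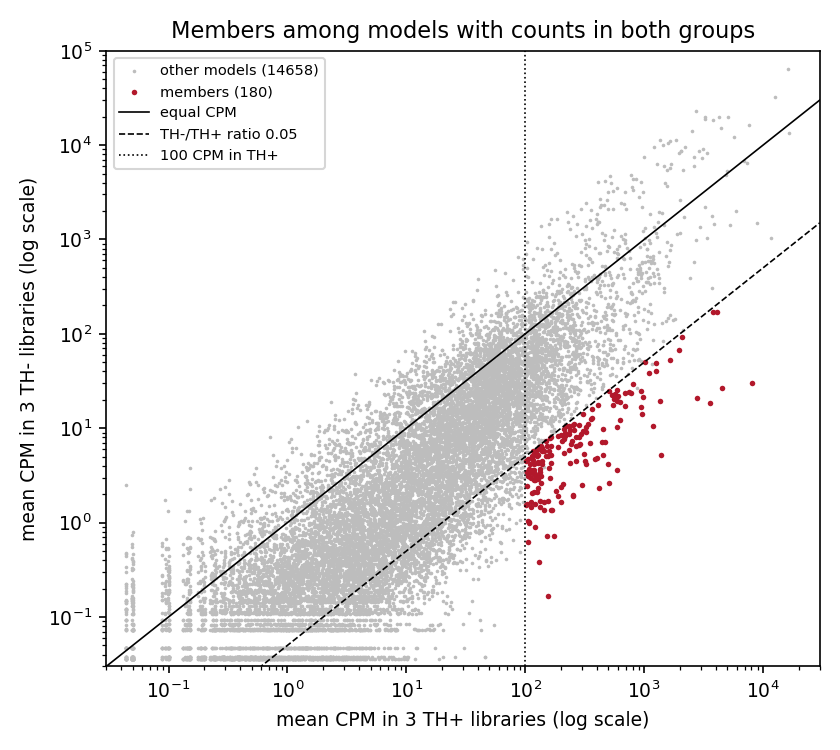
Mean CPM in the 3 TH- libraries against mean CPM in the 3 TH+ libraries on log axes, for the models with counts in both groups. The 180 members, in red, lie below the dashed line of a 0.05 ratio and to the right of the dotted line at 100 CPM, with TH- means of 0.167 to 172 CPM.

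The limits of the rule cut through a continuous range. The members nearest the ratio limit, of 817, 3159 and 3463 bases, stood at 0.04914, 0.04912 and 0.04910. The models just outside, of 1795, 3075 and 5338 bases, stood at 0.0506, 0.0507 and 0.0510. The members nearest the level limit, of 3130, 567 and 2720 bases, had 100.8, 102 and 103 CPM in TH+. The models just below it, of 5477, 1839 and 2908 bases, had 99.2, 98.1 and 96.7 CPM. The longest member had 9982 bases. The length limit left out 3 models of 10989, 11823 and 15318 bases that met the other limits, and the demand for a TH- count left out 0 models.

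The most abundant member per unit of length was PMZ_0056880-RA, a model of 762 bases with whole counts in all libraries. It had 14489, 14526 and 14321 TPM (counts divided by effective length, with a total of 1000000 per library) in the TH+ libraries, against 58.3, 27.9 and 36.9 TPM in the TH- libraries. It averaged 14445 ± 109 TPM in TH+ libraries and 41.0 ± 15.6 TPM in TH- libraries (SD, n = 3 each). It ranked as number 9 of all models in TH+ by this measure. The TH+ libraries were nearly equal, and TH- library 1 stood above the other TH- libraries.

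In CPM, PMZ_0056880-RA averaged 8013 ± 126 in TH+ libraries and 30.2 ± 10.8 in TH- libraries (SD, n = 3 each), a ratio of 0.00377. From pooled counts, 764 in TH- and 166957 in TH+, the ratio was 0.00378, with an exact (Clopper-Pearson) 95% interval of 0.00352 to 0.00406 for counting error only. On the TMM scale, explained below, its fitted log2 fold change of TH+ over TH- was 6.31 with a standard error of 0.20.

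The member with the lowest ratio was PMZ_0036661-RA, of 366 bases. Its counts were 1058, 1085 and 1079 in TH+ libraries and 1, 1 and 2 in TH- libraries. In CPM these were 141, 165 and 159.9 in TH+ and 0.112, 0.108 and 0.281 in TH-. Its pooled ratio was 0.00103 with an exact 95% interval of 0.000279 to 0.00263, so the few TH- counts left its size uncertain. Its counts were not all whole, which shows that some of its reads were divided with a similar model.

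The next members by TPM were short models. The second, of 525 bases, had 10651, 10611.5 and 10067 TPM in TH+ and 27.0, 48.4 and 41.8 TPM in TH-. The third, also of 525 bases, had 5724, 5877 and 5429.9 TPM in TH+ and 92.2, 189.5 and 141 TPM in TH-. Both had fractional counts, so the division of reads between similar models is uncertain for each of them.

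The fourth, of 444 bases, had 4939.7, 5289 and 4852 TPM in TH+ and 11.4, 85.7 and 54.4 TPM in TH-. The fifth, of 475 bases, had 3649.9, 3811 and 3548 TPM in TH+ and 69.4, 124 and 79.5 TPM in TH-. Of these 4 models all were highest in TH- library 2 and lowest in TH- library 1, the reverse of PMZ_0056880-RA.

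A minority of members held a large part of the members' TH+ counts, which are not corrected for length. The 10 members with the most TH+ counts held 40.3% of the members' TH+ counts, and 17 members were enough to hold 50%. In TPM, 12 members reached 1000 and 102 reached 100. By TH+ level per length, 11 members were among the 100 most abundant of all models, 62 among the first 500 and 102 among the first 1000. Members made up 10.2% of the models under 10000 bases at 100 CPM or more in TH+, close to their share of these ranks. The level limit of the rule also places members high, so nothing particular to them is read from the ranks.

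The members were somewhat shorter than the 1577 other models at 100 CPM or more in TH+. Their median length was 2353 bases, against 2920 bases in the others, and 42.8% against 30.2% were under 2000 bases. The median TH+ level was 202 CPM in members and 188 CPM in the others, and 117 TPM in members and 86.0 TPM in the others. Models with whole counts in all 6 libraries made up 47.8% of the members and 53.1% of the others. There were 4 lengths shared by 2 members each, and 7 of these 8 models had fractional counts. Models are not replicates, so these differences are given with no test, and length was also bounded by the rule.

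How far the ratio held in libraries that did not choose the models was examined by leaving out 1 TH+ and 1 TH- library in each of the 9 possible ways. The rule was applied to the remaining 4 libraries and the ratio was then read in the unused pair. Without TH- library 1 the rule chose 161 to 166 models, and 90.1% to 91.5% of them were below 0.05 in the unused pair. Without TH- library 3 it chose 173 to 178 models, of which 94.4% to 96.0% were below 0.05. Without TH- library 2 it chose 189 to 190 models, and 71.1% to 73.7% were below 0.05. The median ratio in the unused pair was then 0.0357 to 0.0371, and the highest ratio was 0.171. Which TH+ library was left out mattered less than which TH- library was. Each value compares 1 library with 1 library, so no test was made. The labels do not say whether libraries came from separate animals or sorts, so an unused pair may be a technical repeat. The share of all abundant models below 0.05 in the unused pair was not taken. For these reasons nothing about other animals is read from the values.

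**Figure D3:**
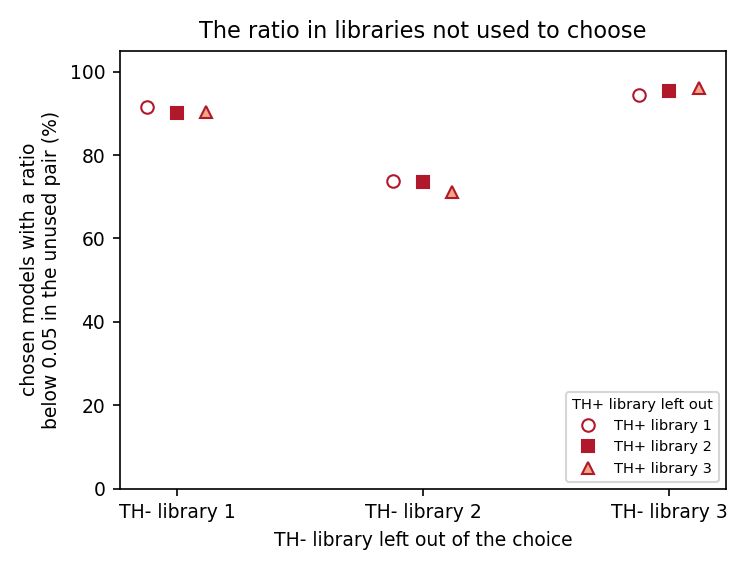
Share of models, in percent, whose TH- to TH+ ratio was below 0.05 in the pair of libraries not used to choose them, by the TH- library left out, with a symbol for each TH+ library left out. The share was 90.1% to 91.5% for TH- library 1, 71.1% to 73.7% for TH- library 2 and 94.4% to 96.0% for TH- library 3.

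The members varied little between TH+ libraries. Their median coefficient of variation over the TH+ libraries was 4.61%, against 4.66% for the other models at 100 CPM or more, where counting error alone gives medians of 2.67% and 2.77%. The order of the members by CPM was nearly the same in each TH+ library, with Spearman's rho of 0.973 to 0.981 between pairs of libraries over 180 members, which share the libraries' depth and amplification. TH+ libraries 1, 2 and 3 were the highest for 45.6%, 38.3% and 16.1% of the members and for 40.4%, 28.4% and 31.2% of the other abundant models.

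A few members departed from this. The coefficient of variation in TH+ was above 15% for 5 members, of 474, 817, 1251, 1285 and 1924 bases, which were picked out after their values were seen. The largest, 32.3%, belonged to the 1285-base member, with 180.3, 339 and 232 CPM in TH+ and 3.37, 1.30 and 1.12 CPM in TH-. The 1924-base member had 1015, 1565 and 1549 CPM in TH+ and 4.27, 5.42 and 5.75 CPM in TH-. All 5 were highest in TH+ library 2. The highest coefficient among the other models at 100 CPM or more was 20.2%. The members of 474, 1251, 1285 and 1924 bases exceeded it, with 21.9%, 20.5%, 32.3% and 22.7%. The share of the other models above 15% was not taken.

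Between TH- libraries the members varied more. Their median coefficient of variation there was 33.1%, against 24.7% for 5263 other models at a like TH- level, between 1.34 and 30.6 CPM, the 5th and 95th percentiles of the members. Counting error alone gives medians of 14.8% and 13.5%, below the measured spread in both sets. The rho between pairs of TH- libraries over the members was 0.727 to 0.914, lowest between libraries 1 and 2. Members with more CPM in TH+ tended to have more in TH- (rho 0.747 between the means over 180 members), a relation that the ratio limit partly fixes.

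The spread in TH- had a direction, which the rule did not use. TH- libraries 1, 2 and 3 were the highest for 36, 108 and 36 of the 180 members, or 20.0%, 60.0% and 20.0%. Among the models at a like TH- level these shares were 52.9%, 24.3% and 22.8%. Among the other models at 100 CPM or more in TH+ they were 56.9%, 32.9% and 10.1%. On library totals the members thus had their highest TH- value mostly in library 2, and both comparison sets had it mostly in library 1. The comparison sets share some models, and neither was matched to the members on the ratio of TH- to TH+. Of the other abundant models at ratios of 0.05 to 0.1, 52.7% were highest in library 2 and 32.5% in library 1. The direction was thus not particular to the members.

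The order of TH- library 1 below library 3 below library 2 was found for 87 members, or 48.3%, and for 15.03% of the models at a like TH- level. On the TMM scale, 25, 121 and 34 members were highest in TH- libraries 1, 2 and 3, and 38.2%, 35.0% and 26.8% of the models at a like level were. On that scale the members still lay mostly in library 2, but the models at a like level no longer lay mostly in library 1. With 3 TH- libraries and models that share them, this contrast was not tested over libraries.

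The members differed among themselves in how unequal the TH- libraries were. The ratio of CPM in TH- library 2 to that in TH- library 1 had a median of 1.51 over members and ranged between 0.214 and 15.05. The median was 0.807 for models at a like level and 0.905 for the other abundant models. Among the latter, the 169 models whose TH- mean was 0.05 to 0.1 of the TH+ mean had a median of 1.11. The ratio of library 2 to 1 was at least 2 for 66 members, or 36.7%. That held for 7.55% of the models at a like level and 5.45% of the other abundant models. It was at least 4 for 25 members, or 13.9%, against 1.58% at a like level and 0.634% of the other abundant models. It was at least 8 for 8 members, or 4.44%, against 0.418% and 0.254%. It was below 1 for 55 members. It was at most 0.5 for 8 members, or 4.44%, against 13.8% at a like level and 2.22% of the other abundant models.

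**Figure D4:**
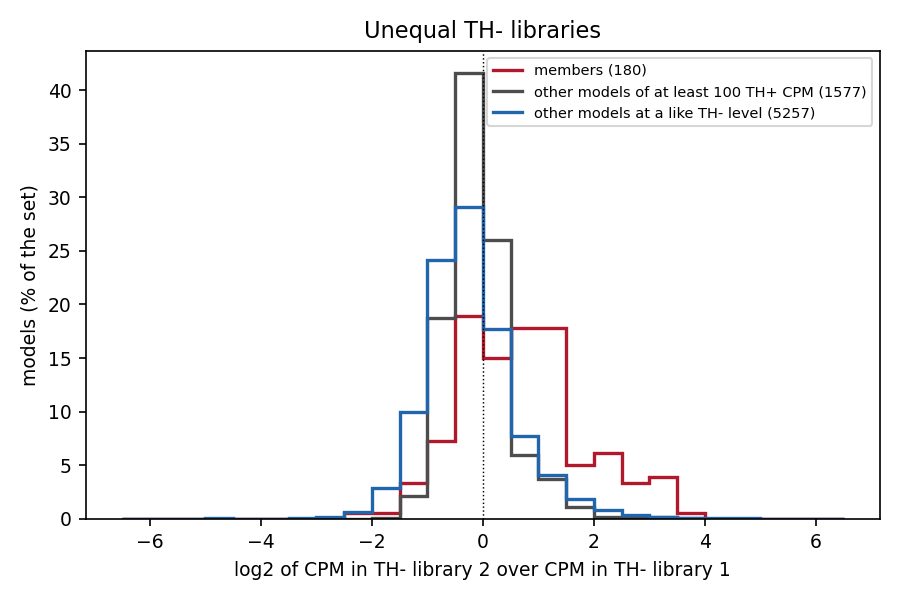
Distribution of the log2 ratio of CPM in TH- library 2 to CPM in TH- library 1, as a percent of each set, for members, other models at 100 TH+ CPM or more, and other models at a like TH- level, leaving out models with 0 counts in either library. The members reach further to the right, with a median ratio of 1.51, against 0.905 in the other abundant models and 0.807 at a like level.

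The highest ratio belonged to a 1269-base member, with 156, 142 and 148 CPM in TH+ and 0.562, 8.46 and 6.31 CPM in TH-. The member with the most counts in TH- library 2, a 3197-base model, had 4073, 4107 and 4109 CPM in TH+ and 41.9, 312 and 161 CPM in TH-. Its TH+ libraries differed by a coefficient of variation of 0.494%, the smallest among the members, while its TH- libraries differed by 78.8%. It alone supplied 11.7% of the members' counts in TH- library 2, but without it the members' share was still the highest there, with 0.140%, 0.235% and 0.182% in TH- libraries 1, 2 and 3. At the other end, a 924-base member had 147, 128 and 126 CPM in TH+ and 3.04, 0.651 and 0.702 CPM in TH-. These 3 members were picked out after their values were seen.

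The 25 members with a ratio of at least 4 between TH- libraries 2 and 1 were otherwise mixed. All 25 also had more CPM in TH- library 3 than in library 1, and 23 lay in the order of libraries 1, 3 and 2. Choosing models by a low library 1 relative to library 2 favours both counts. The same counts were not taken for other models that reach this ratio, so nothing is read from them. The lengths of the 25 members were 444 to 5733 bases, their TH+ means 104 to 4096 CPM and their ratios of TH- to TH+ 0.00481 to 0.0480. Their median coefficient of variation in TH+ was 4.52%. Over all 180 members, the ratio of TH- library 2 to 1 showed little relation to length (rho -0.07), to TH+ CPM (rho 0.05) or to the ratio between groups (rho 0.11).

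The pattern extended in part to models beyond the members. Among all models under 10000 bases that reached 100 CPM in TH+, the share that was highest in TH- library 2 was 47.5% for the 61 members under 0.02 and 66.4% for the 119 members of 0.02 to 0.05. Outside the members it was 52.7% at ratios of 0.05 to 0.1, 36.9% at 0.1 to 0.2 and 18.3% at 1 to 2. It was 47.9% for the 142 models above 2. Among models of that length at 10 to 100 CPM in TH+, which are too scarce to be members, it was 43.9% under 0.02, 39.9% at ratios of 0.02 to 0.05, 27.4% at 0.1 to 0.2 and 14.3% at 1 to 2. The share was thus above that at ratios of 1 to 2 on both sides of the 0.05 limit and on both sides of 100 CPM. At 100 CPM or more the share at ratios above 2 was higher too, so higher shares were not confined to low ratios. At 10 to 100 CPM the median ratio of TH- library 2 to 1 was 0.964 under 0.02 and 1.06 at 0.02 to 0.05. It was 0.758 at 1 to 2 there, and 1.38 and 1.54 in the same low classes of members. Scarce models at low ratios have few TH- counts, and counting error draws the shares of the libraries together, so these classes are not fully alike. What differed between the TH- libraries was not tested, and no batch or sequencing date is given in the labels.

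**Figure D5:**
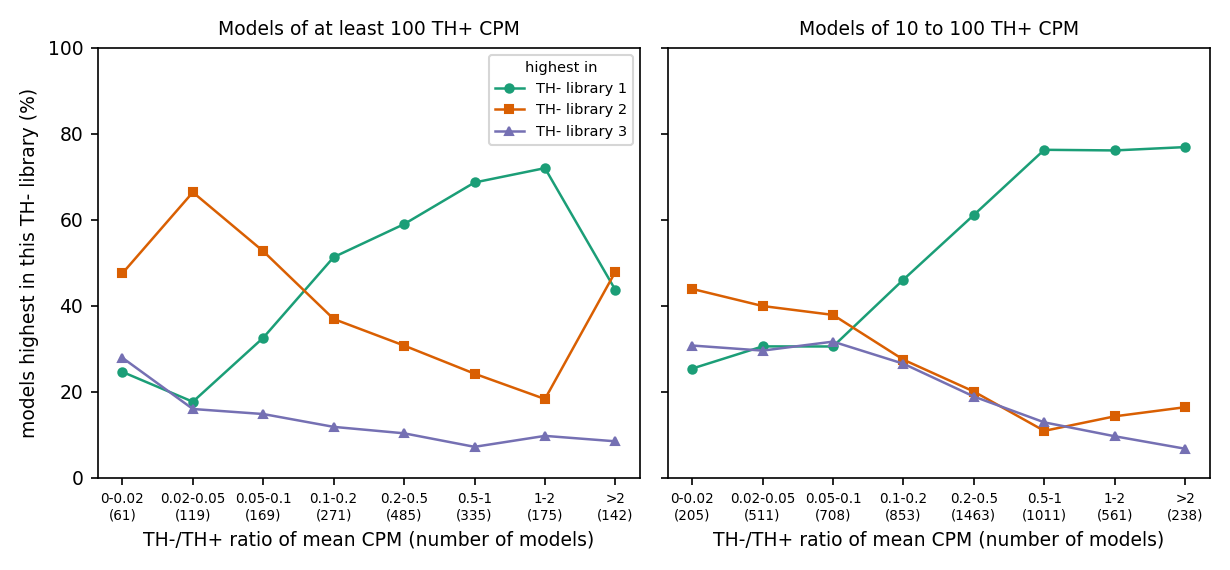
Percent of models whose highest TH- level was in TH- library 1, 2 or 3, by the ratio of TH- to TH+ mean CPM, for models under 10000 bases of at least 100 CPM in TH+ (left, where the 2 lowest classes are the members) and of 10 to 100 CPM in TH+ (right), with the number of models in parentheses. On the left, library 2 led at ratios below 0.1, with 66.4% of the members between 0.02 and 0.05, and also above 2, with 47.9% against 43.7% for library 1. Library 1 led between 0.1 and 2 in both panels, and on the right also above 2, with 76.9% against 16.4% for library 2.

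The size of the enrichment depended on the scale. On library totals the lowest and median folds of TH+ over TH- were 20.3 and 33.7. TMM, a scaling that takes most models as unchanged, multiplied library totals by factors that averaged 1.85 in TH+ and 0.543 in TH-. It placed the members' ratios of TH- to TH+ between 0.00369 and 0.172, with a median of 0.102, and left 41 members below 0.05. In TPM all 180 members were below 0.05, with a median of 0.0229 and a highest value of 0.0386. For short members the TPM ratio also carries the difference in effective length between the groups. The lower ratio in TPM was not confined to short members. The longest, of 9982 bases, averaged 33.2 TPM in TH+ and 0.613 TPM in TH-, against 291.5 and 6.82 CPM. What lowered the ratios in TPM was not tested.

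In edgeR's quasi-likelihood fit over all models, with TMM and Benjamini-Hochberg adjustment at 0.05, all 180 members were among the models called higher in TH+. That call was made for 42.8% of the 11502 models tested, and the same contrast had chosen the members, so nothing is read from the count. The fitted log2 fold changes of members were 2.55 to 8.10, with a median of 3.30, while the median of all tested models was 0.38. On library totals alone the medians were 5.07 for members and 2.14 for all models. The members' median lay 2.92 above that of all models under TMM and 2.93 above it on library totals. The share of higher models among those called was 56.5% under TMM and 89.7% on library totals.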

How the data were processed

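RNA of TH+ and TH- cells was measured in 3 libraries each. Each library's table was made by the authors with kallisto, per the submitters' processing notes. The notes name no version, and the transcript set and genome build were not given in the sources used here. Estimated counts, as deposited, can be fractional because kallisto divides reads among similar models. TPM, as deposited by the authors, correct the counts for effective length and for depth. Per the labels' protocols, cDNA came from an ultra-low-input kit. No molecular identifiers are described, so counts are of reads and intervals cover counting error only.

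Estimated counts were rounded to whole numbers, CPM were taken on library totals, and counts within 1e-06 of an integer were called whole. Models were filtered with filterByExpr (minimum count 10, minimum total 15) and fitted with edgeR 4.0.16 in R 4.3.3 with TMM and no covariate, after a check on simulated counts. In that check few models changed, evenly up and down, so it does not cover TMM or the calls where most models differ, as here. Alternatives used DESeq2 1.42.0, limma 3.58.1 (log2 of TPM plus 1 or plus 0.1), other scalings, filters and thresholds, a replicate block, and leaving out each library. Standard errors were the log2 fold change divided by the root of F.

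The members, comparisons and naming rule were chosen with earlier results of these data known. The rule gave by identifier the member with the highest mean TH+ TPM and the one with the lowest ratio, and by length the members ranked 2 to 5 by TPM and those nearest the limits. Other members given by length were picked after their values were seen. The comparison by ratio class was added after the data were seen.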

Additional observations from a re-analysis of the deposited data

How the results depend on the processing

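How many models the rule selected depended on its scale and limits: 180 as given, 22 on TMM-scaled CPM and 23 with DESeq2 size factors (all of them among the 180), 61 with a ratio below 0.02, 349 below 0.1, 301 with TH+ CPM of at least 50 and 91 with at least 200. With TPM in place of CPM it selected 171 models, of which 102 were members. Leaving out each library in turn gave 164 to 191 models. The members' share of TH+ counts was 4.06% for whole-count members alone and 8.33% to 8.45% over the libraries left out. Their share in TH- was 0.118% in TPM, 0.0736% for whole-count members alone and 0.171% to 0.232% over the libraries left out. The whole-count shares add up 86 of the 180 members, so they are lower by construction and do not show a dependence on processing. Among the 86 whole-count members, 18, 46 and 22 were highest in TH- libraries 1, 2 and 3. These were 20.9%, 53.5% and 25.6% of them, against 20.0%, 60.0% and 20.0% of all members. With a library of the same group left out, the median coefficient of variation was 3.74% to 4.10% in TH+ and 23.1% to 37.9% in TH-. With all libraries it was 4.61% and 33.1%. The former rest on 2 libraries of the group and the latter on 3, so they are not like measures. No effect of the library left out is read from their difference. The fitted log2 fold change with a library left out was 6.14 to 6.52 for PMZ_0056880-RA and 7.80 to 8.57 for PMZ_0036661-RA. The scale moved these values further. On library totals they were 8.05 for PMZ_0056880-RA and 9.80 for PMZ_0036661-RA. With limma on log2(TPM + 0.1) they were 8.52 and 10.3. With each library left out 180 members were called higher, as were 38.0% to 43.4% of all models tested. The other edgeR, DESeq2 and limma settings called 180 members, except the strict filter, which tested and called 151. Of all models in the fit they called 28.0% (DESeq2, 18015 models) to 83.6% (limma on log2(TPM + 1), 11502 models). The contrast that chose the members also gives these calls, so they do not bear on stability. Over all models the higher and lower calls were 4927 and 3789 under TMM, 8989 and 1028 on library totals, 9621 and 696 with limma on log2(TPM + 1), 9541 and 672 on log2(TPM + 0.1), and 2793 and 2636 under the strict filter. Libraries with the same number did not deviate together (correlations of 0.0139, 0.0290 and -0.000183 between deviations from the group means), and a replicate block called 180 members and 39.4% of all models. DESeq2 left the adjusted p missing for 2795 models, none of them a member, and its share counts these as not called. Depth limits the members with fewest TH- counts most, and the missing gene names limit all of them.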

Other observations

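Most members had no other member close to them in identifier number: 12 of the 180 had one at a distance of 1, 26 within 5 and 45 within 10. Of the 1577 other abundant models, 43, 157 and 277 had a member at these distances. Any abundant model at a distance of 1 was found for 49 members and for 403 of the others. The share of members among the abundant neighbours differed between the sets. Among abundant models (at least 100 CPM in TH+, under 10000 bases) whose number lay 1 away from that of a member, 12 of 55, or 21.8%, were members themselves. Next to the other abundant models the same held for 43 of 463, or 9.29%. Within a distance of 10 numbers, 62 of 385 abundant neighbours of members were members, or 16.1%, against 323 of 3729, or 8.66%, around the other abundant models. Members made up 10.2% of all abundant models. What the numbers follow is not given in the sources used here, each pair of neighbours is counted from both sides, and similar copies can carry close numbers, so these shares are a description with no test.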
